A study of Mus musculus with 4 samples.

Results

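The tetraspanins are a family of membrane proteins that cross the plasma membrane several times, and the genes of this family were examined in endothelial cells (ECs), the cells that line blood vessels, of the dura mater and of the brain. Members were found by gene symbol alone: a symbol of Tspan plus a number (without Tspan12), or Cd9, Cd37, Cd53, Cd63, Cd81, Cd82, Cd151, Prph2, Rom1, Upk1a or Upk1b. This gave 30 of the 23282 symbols listed in each count table. RNA was sequenced from 2 libraries of brain parenchyma ECs and 2 of dura mater ECs, all of wild-type strain C57BL/6J mice 8 weeks of age, with no treatment or transgene named in the labels. The labels do not say whether the 2 libraries of a tissue came from separate mice or from pooled mice, so p-values measure only the spread between these libraries, which may be technical. Both tissues were digested to single cells, and CD31+ CD45- TER-119- cells were collected by flow sorting. Brain ECs alone were enriched with CD31 beads beforehand, and this step cannot be told apart from tissue.

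Tetraspanins work by gathering other proteins. They hold integrins, immunoglobulin-like proteins and proteases together in patches of the cell surface, and they are much used as marks of extracellular vesicles. In ECs they are known for roles in adhesion to the basement membrane, in the docking of leukocytes and in the control of ADAM10, a protease that sheds the outer part of other surface proteins. Members with extra cysteines in the large outer loop, called TspanC8, bring ADAM10 to the surface. Other members belong mainly to leukocytes, to the photoreceptors of the retina or to the lining of the bladder.

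The libraries held from 13518973 to 16096203 counts. Replicates differed strongly: of the symbols that reached 64 counts in either library of a tissue, 31.3% (brain) and 30.7% (dura mater) stood at 7 or fewer in the other, and the common biological coefficient of variation was 1.39. The 11 pan-endothelial markers were all tested, with a summed level of 10300 and 12700 CPM (counts scaled to a common library total) in brain ECs, against 9010 and 11400 CPM for dura mater, so the endothelial label held in each library. The 12 leukocyte markers summed to 22.7 to 96.3 CPM per library, with P2ry12 and Cd3e at 0 and Ptprc, which encodes the CD45 of the sort, at 4 or fewer counts in each of the 4. Other leukocyte markers were counted in single libraries or in 1 tissue, with Laptm5 at 1377 counts in brain replicate 1, Csf1r at 646 in brain replicate 2, and Fcer1g at 6 and 17 counts in brain ECs against 610 and 173 for dura mater. Erythroid markers moved with tissue, at 9880 and 14700 CPM in brain ECs against 823 and 457 CPM in dura mater ECs.

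Of the 30 tetraspanin genes, 6 had 0 counts in all 4 libraries (Prph2, Tspan1, Tspan10, Tspan32, Upk1a and Upk1b), which allows up to 0.181 to 0.226 CPM per library. A further 7 had counts but were too low or too uneven to be tested (Cd37, Cd53, Tspan2, Tspan8, Tspan11, Tspan15 and Tspan33), and 17 were tested. At least 64 counts in every library were found for 11 members. Counts are compared between libraries and not between genes, since they were not scaled to transcript length.

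**Figure D1:**
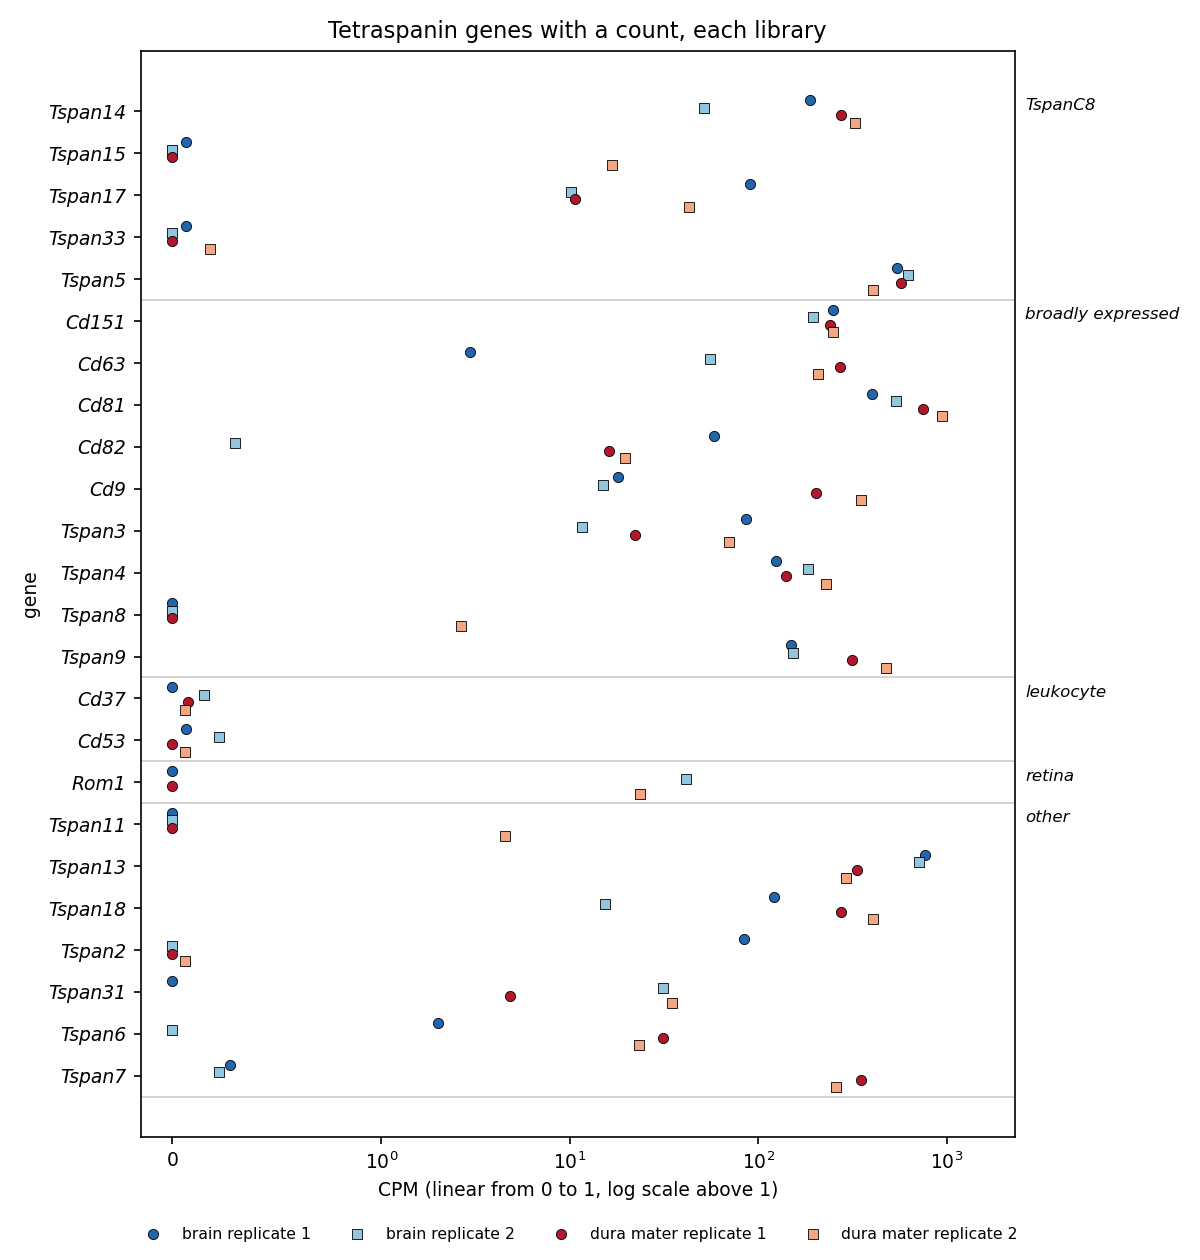
CPM (x axis, linear from 0 to 1 and on a log scale above 1) of the 24 tetraspanin genes with a count (y axis), grouped by role, with 1 point for each of the 4 libraries. Tspan7 sits below 1 CPM in both brain libraries and at 260 and 350 CPM in the dura mater libraries, whereas Tspan5 and Cd151 lie close together in all 4.

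Summed over the family, tetraspanin counts were a larger part of the library in dura mater ECs. They made up 0.291% of counts in brain replicate 1 (95% Wilson interval 0.288 to 0.294), 0.254% in brain replicate 2 (0.251 to 0.256), 0.380% in dura mater replicate 1 (0.377 to 0.383) and 0.452% in dura mater replicate 2 (0.449 to 0.455). Intervals cover counting error only. The mean was 0.272% ± 0.0264 for brain and 0.416% ± 0.0507 for dura mater (SD, n = 2), with no overlap between tissues. An exact permutation test of 2 libraries against 2 cannot go below p = 0.333, so none was made.

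Most of this difference lay in the broadly expressed members. They summed to 1090 and 1150 CPM in the brain libraries and to 1950 and 2540 CPM in the dura mater libraries. The TspanC8 members stood at 826 and 682 CPM against 853 and 791 CPM, and the remaining Tspan genes at 973 and 759 CPM against 994 and 1020 CPM. The TspanC8 sums overlapped between tissues. Those of the remaining Tspan genes were higher in both dura mater libraries, though close together in 3 libraries. This last sum joins members that went opposite ways, with mean levels of 0.250 against 304.8 CPM for Tspan7 and 739.0 against 312.4 CPM for Tspan13.

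**Figure D2:**
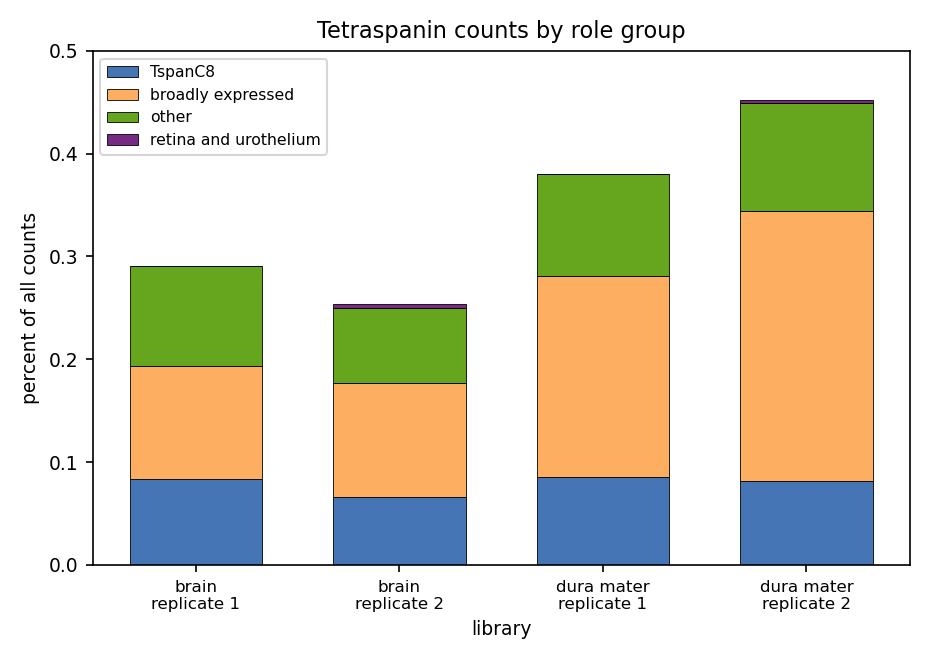
Percent of all counts (y axis) in each library (x axis) held by tetraspanin genes, stacked by role group. The segment of broadly expressed members is tallest in both dura mater libraries, and the TspanC8 segment differs less between tissues; leukocyte members, at 5 or fewer counts per library, are not drawn.

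In the edgeR test across all 9347 genes, 1 of the 17 tested tetraspanin genes passed at an adjusted p under 0.05. That gene was Tspan7. Among all genes tested, 0.610% passed (57 genes), with 0.428% higher and 0.182% lower in dura mater ECs. At an unadjusted p under 0.05 there were 4 members (Tspan7, Cd9, Tspan9 and Tspan13), against 10% of all genes. Of the tested members 11 had a positive and 6 a negative log2 fold change of dura mater over brain, where 49.8% of all genes were above 0. Their median was 0.36, beside -0.01 over all genes tested. In 8 members both dura mater libraries lay above both brain libraries, and in 1 they lay below, where the background is 25.9% and 17.1% of genes. These counts describe the members that passed the filter on low counts, which favours genes high in one tissue, and the family was examined with earlier results of these data known, so nothing is read from them about the family as a whole.

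The number of members passing moved with the method, and so did the background. DESeq2 called 2 members and 8.63% of all genes, limma-voom 0 members and 0.856%, and edgeR with its newer dispersion estimate 4 members and 3.27%. Without a filter on low counts 4 members and 2.39% of genes passed, with the replicate number as a block 2 members and 2.40%, with RLE scaling 1 member and 0.567%, and with 64 counts required in both libraries of a tissue 1 member and 0.947%. Leaving out brain replicate 1 gave 4 members and 6.38% of genes, and leaving out brain replicate 2 gave 4 members and 6.05%.

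**Figure D3:**
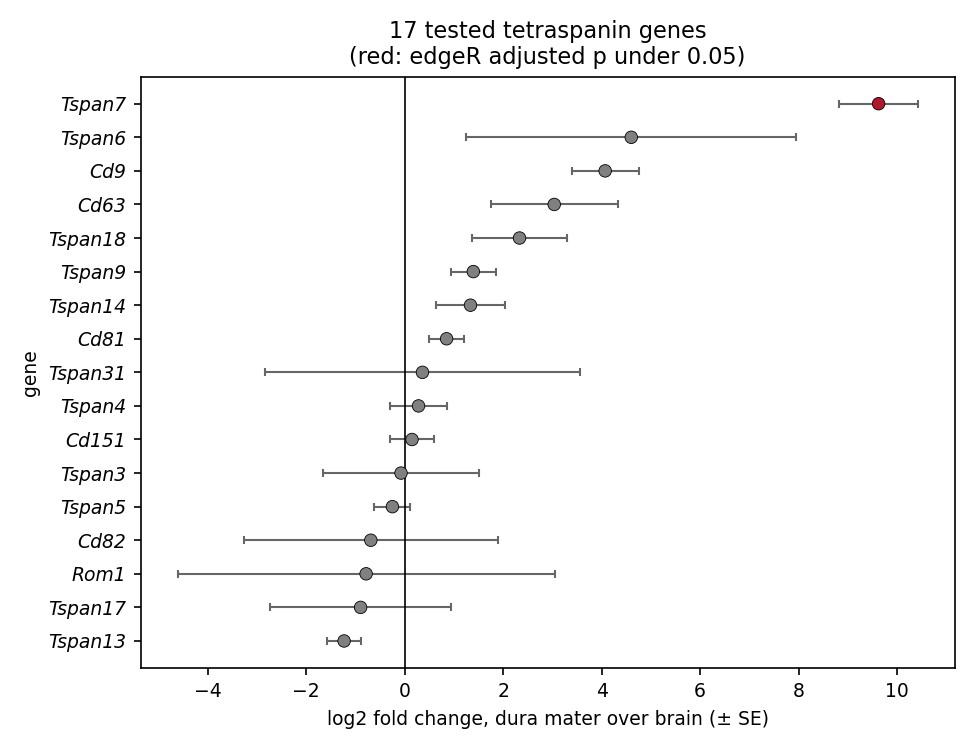
Log2 fold change of dura mater over brain (x axis) with its standard error (bars) for the 17 tested tetraspanin genes (y axis), in order of size. Tspan7, in red, is the gene with an adjusted p under 0.05 in edgeR, and the bars of Tspan31, Rom1, Tspan6, Cd82, Tspan17 and Tspan3 are the widest.

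Tspan7 rose in dura mater ECs from near absence in brain ECs. It encodes a tetraspanin best known from neurons, where it takes part in the trafficking of glutamate receptors at synapses. The gene lies on chromosome X, 10485158 to 10596605, plus strand (GRCm38). It had 4 counts in brain replicate 1 and 3 in brain replicate 2, against 4736 and 4308 counts in dura mater replicates 1 and 2. The groups were thus far apart and each pair of replicates lay close together, at 0.275 and 0.226 CPM in brain ECs and 350.1 and 259.5 CPM in those of dura mater. The mean level was 0.250 ± 0.0345 CPM for brain and 304.8 ± 64.03 CPM for dura mater (SD, n = 2). Over the summed libraries the ratio was 1190, with a 95% exact interval of 580 to 2970 for counting error alone.

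The fitted log2 fold change of Tspan7 was 9.62 (± 0.79 SE, adjusted p 0.0232 in edgeR). Among the 9347 genes tested it ranked 4 by p and 34 by log2 fold change. Of all symbols, 761 had the same pattern (at most 7 counts in each brain library, at least 64 in each dura mater library), and Tspan7 was the tetraspanin among them. The reverse pattern was far rarer, at 47 symbols. The log2 fold change stayed between 9.29 and 10.19 over 14 alternative settings and the adjusted p under 0.05 in 13 of them, the exception being limma-voom (adjusted p 0.0924). Among the 14 settings, the prior count of 0.5 alters only the log2 fold change, so its adjusted p (0.0232 in edgeR) was fixed in advance. A filter that required 10 counts in every library removed the gene.

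Summed levels of astrocyte, fibroblast, lymphatic and Schwann cell markers were higher in both dura mater libraries, as Tspan7 was. Those of neuronal markers were alike in the tissues. In these lists 0 markers passed in edgeR in either direction, and both dura mater libraries lay above both brain libraries in 25.9% of all genes tested. Of the 5 neuronal markers 2 were tested, and the list summed to 140 and 169 CPM for brain and 156 and 155 CPM for dura mater. Its member Stmn2 made up most of this sum. The other tested member, Gap43, had 0 and 0 counts against 51 and 81 (log2 fold change 5.02, adjusted p 0.466 in edgeR), and so lay in the direction of Tspan7. Syt1 had 2 and 1 counts against 170 and 0, Rbfox3 had at most 1 count in any library and Snap25 at most 20. The 5 astrocyte markers summed to 51.3 and 7.90 CPM for brain and 351 and 153 CPM for dura mater (2 tested, Aqp4 at 0). Gja1 made up most of this sum, with 743 and 103 counts against 3641 and 2460. Slc1a3 had 1 and 1 counts against 915 and 74, Gfap 3 and 0 against 189 and 0, and Aldh1l1 at most 1. The 6 fibroblast markers stood at 7.34 and 50.5 against 334 and 348 CPM (4 tested, Pdgfra at 1 or fewer counts and Lum at 4 or fewer). Of the 5 lymphatic markers, 4 had a single entry, and 3 of these were tested (Ccl21a had several entries). Summed with all entries of Ccl21a, the lymphatic list stood at 122 and 144 against 345 and 563 CPM. The 4 Schwann cell markers stood at 2.13 and 0.0752 against 29.3 and 3.19 CPM (1 tested, Cdh19 at 0). The part of these cells in the Tspan7 result was not tested. In bulk libraries, fewer cells with a transcript and less of it per cell cannot be told apart.

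The 250 bases before the RefSeq start of Tspan7, of Cd9, and of Tspan13, the tested member with all dura mater values below all brain values, are shown because these genes had the clearest separation in each direction. The sequences are from RefSeq (GRCm38.p6), 5′ to 3′ on the strand of the gene, and capitals mark matches on either strand to the ETS core CCGGAA or the SP/KLF GC box GGGCGG. The windows of Cd9 and Tspan13 reach into the first bases of these genes as GENCODE annotates them. No binding was measured here. Tspan7 (chrX:10484866-10485115, plus strand), Cd9 (chr6:125494761-125495010, minus strand) and Tspan13 (chr12:36042479-36042728, minus strand) read as follows.
Tspan7: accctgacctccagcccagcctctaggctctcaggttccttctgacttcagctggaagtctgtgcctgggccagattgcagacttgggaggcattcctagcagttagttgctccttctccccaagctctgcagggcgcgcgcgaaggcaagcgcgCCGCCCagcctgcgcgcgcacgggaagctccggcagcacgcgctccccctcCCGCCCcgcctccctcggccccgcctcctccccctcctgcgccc
Cd9: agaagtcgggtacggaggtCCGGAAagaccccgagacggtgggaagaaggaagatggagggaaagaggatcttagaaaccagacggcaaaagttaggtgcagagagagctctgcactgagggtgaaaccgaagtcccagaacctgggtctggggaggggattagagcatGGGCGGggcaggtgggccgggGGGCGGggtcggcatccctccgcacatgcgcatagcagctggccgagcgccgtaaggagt
Tspan13: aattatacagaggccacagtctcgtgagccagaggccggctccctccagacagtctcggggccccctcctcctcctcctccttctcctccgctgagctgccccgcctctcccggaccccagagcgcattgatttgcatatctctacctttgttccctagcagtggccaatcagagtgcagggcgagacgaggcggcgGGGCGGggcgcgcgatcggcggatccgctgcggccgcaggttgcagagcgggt

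The GC box was found in all 3 of these windows, with 2 matches before Tspan7, 2 before Cd9 and 1 before Tspan13, and in 32.7% of the 32851 windows of all genes. The ETS core was found once, before Cd9, and in 12% of all windows. Matches to the AP-1 motif TGANTCA (6.75% of all windows), the E-box CACGTG (6.02%) and the TATA box TATAAA (12.4%) were not in these 3 windows. Over the 38 windows of tetraspanin genes, 17 held the GC box and 7 the ETS core. The GC content was 69.2%, 61.6% and 66% in the windows of Tspan7, Cd9 and Tspan13, with a median of 52.4% over all windows.

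Among the broadly expressed members, Cd9 and Cd63 had the largest fold differences. Of the 9 members in this group 8 were tested and 0 passed in edgeR, with 2 at an unadjusted p under 0.05 (Cd9 and Tspan9) and 1 passing in DESeq2 (Cd9). Cd9 (chromosome 6, 125460266 to 125494791, minus strand), a partner of integrins and of immunoglobulin-like proteins in adhesion and cell fusion, had 262 and 198 counts in the brain libraries, against 2724 and 5824 in those of dura mater. Its levels were 17.98 and 14.9 CPM against 201.4 and 350.8 CPM, so the tissues did not overlap and the 2 brain libraries were close. The mean was 16.4 ± 2.18 CPM for brain and 276.1 ± 105.7 CPM for dura mater (SD, n = 2), with a log2 fold change of 4.07 (± 0.68 SE, adjusted p 0.0829 in edgeR). It passed in 7 of 15 alternatives, DESeq2 among them (adjusted p 0.000111), and its adjusted p ranged from 1.78e-05 to 0.519.

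Cd63 (chromosome 10, 128900989 to 128912822, plus strand) encodes a protein of late endosomes and lysosomes that in ECs also sits in Weibel-Palade bodies, the stores of von Willebrand factor and P-selectin. It had 43 and 736 counts in the brain libraries, against 3662 and 3425 in those of dura mater. The dura mater libraries were alike, at 270.7 and 206.3 CPM, and above both brain libraries, which were far apart, at 2.95 and 55.4 CPM. The log2 fold change was 3.04 (± 1.29 SE, adjusted p 0.466 in edgeR), and it was 6.23 without brain replicate 2 and 2.07 without brain replicate 1. The distance between the brain libraries thus set the size of the difference.

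Tspan9 and Cd81 had smaller differences with closer replicates. Tspan9 (chromosome 6, 127961396 to 128143594, minus strand), a tetraspanin studied in platelets, had 2181 and 2041 counts in the brain libraries, against 4225 and 7937 in those of dura mater, or 151.6 ± 2.75 against 395.2 ± 117.3 CPM (SD, n = 2). Its log2 fold change was 1.39 (± 0.46 SE, adjusted p 0.429 in edgeR). Cd81 (chromosome 7, 143052739 to 143067934, plus strand), a component of the B cell coreceptor that is also found on most other cells, had 5868 and 7182 counts in the brain libraries, against 10131 and 15567 in those of dura mater. It stood at 402.7 and 540.4 CPM against 748.9 and 937.8 CPM, with a log2 fold change of 0.85 (± 0.35 SE, adjusted p 0.466 in edgeR). Neither passed in any of 15 alternatives, although both kept a positive log2 fold change in each.

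Cd151 and Tspan4 overlapped between tissues. Cd151 (chromosome 7, 141467392 to 141471473, plus strand), the partner of laminin-binding integrins, had 3631 and 2594 counts in the brain libraries, against 3228 and 4151 in those of dura mater, which is 222.2 ± 38.2 against 244.3 ± 8.10 CPM (SD, n = 2). Its log2 fold change of 0.15 (± 0.45 SE, adjusted p 1.00 in edgeR) turned to -0.08 without brain replicate 2. Tspan4, a marker of migrasomes, the vesicles that migrating cells leave on their retraction fibres, lies 3.77 kb downstream of Cd151 on the same strand. It had 1814 and 2429 counts against 1908 and 3801 (log2 fold change 0.28, turning to -0.14 without dura mater replicate 2 and to -0.03 without brain replicate 1).

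The last 3 broadly expressed members were uneven or low. Tspan3 had 1255 and 154 counts in the brain libraries, against 301 and 1156 in those of dura mater, so that the replicates of a tissue were farther apart than the tissue means. Cd82, first described as a suppressor of metastasis, had 846 and 4 counts in brain ECs, with 219 and 326 for dura mater. The log2 fold change of -0.69 (± 2.58 SE) turned positive in 3 of 14 alternatives. Tspan8, an epithelial and tumour tetraspanin, was counted in dura mater replicate 2 alone (44 counts).

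The TspanC8 members, which bind ADAM10, did not pass in edgeR: 3 of 6 were tested, with 0 passing, 0 at an unadjusted p under 0.05 and 0 in DESeq2. Tspan5 was steady, with 7972 and 8247 counts in the brain libraries, against 7693 and 6747 in those of dura mater, or 583.8 ± 51.9 against 487.5 ± 114.7 CPM (SD, n = 2; log2 fold change -0.25, SE 0.36). Tspan14 had 2735 and 681 counts against 3701 and 5399, with both dura mater libraries above both brain libraries. A log2 fold change of 1.34 (± 0.70 SE, adjusted p 0.578 in edgeR) was 2.50 without brain replicate 1 and 0.62 without brain replicate 2. Tspan17 had 1321 and 134 counts against 144 and 711. The direction was the opposite, at a log2 fold change of 1.34, without brain replicate 1. Tspan15 was counted in dura mater replicate 2 (278 counts) and at 1 or fewer counts in the other libraries, Tspan33 had at most 3 counts in any library, and Tspan10 had none.

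Tspan18 and Tspan6, of the remaining Tspan genes, had higher values in both dura mater libraries. Tspan18 (chromosome 2, 93201760 to 93334505, minus strand), an EC tetraspanin that takes part in calcium entry through Orai1, had 1762 and 204 counts in the brain libraries, against 3722 and 6747 in those of dura mater. Its levels were 120.9 and 15.4 CPM against 275.1 and 406.4 CPM, with a log2 fold change of 2.33 (± 0.96 SE, adjusted p 0.466 in edgeR), and it passed in 3 of 15 alternatives. The log2 fold change was 4.42 without brain replicate 1 and 1.43 without brain replicate 2. Tspan6 (chromosome X, 133891068 to 133898429, minus strand) had 29 and 0 counts against 420 and 388. The dura mater libraries agreed, at 31.0 and 23.4 CPM, but the log2 fold change of 4.60 had a SE of 3.35 (edgeR adjusted p 0.831).

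Tspan13 was the tested member with lower values in dura mater ECs. It lies on chromosome 12, 36014557 to 36042500, minus strand, and had 11163 and 9461 counts in the brain libraries, against 4498 and 4851 in those of dura mater. At 739.0 ± 38.3 CPM against 312.4 ± 28.5 CPM (SD, n = 2), replicates were close in both tissues and the tissues did not overlap. The log2 fold change was -1.23 (SE 0.35), with an unadjusted p of 0.0112 and an edgeR adjusted p of 0.328. It stayed negative in each of 15 alternatives, from -1.46 to -1.17, and its smallest adjusted p was 0.0548, in DESeq2.

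Tspan2 and Tspan31 were each counted unevenly. Tspan2, a tetraspanin of oligodendrocytes, had 1218 counts in brain replicate 1 and at most 1 in the other 3 libraries. The 7 oligodendrocyte markers summed to 102 CPM in brain replicate 1, 0.301 in brain replicate 2, and 124 and 24.2 CPM in dura mater ECs (3 tested, Mag and Mobp at 0), so the brain library with Tspan2 was also the brain library with these markers, but dura mater replicate 1 had as high a sum with no count of Tspan2. Mbp, which encodes myelin basic protein, had 1476 and 4 counts in brain replicates 1 and 2 and 1027 and 6 in dura mater replicates 1 and 2. The part of oligodendrocyte RNA in the Tspan2 counts was not tested. Tspan31 had 0 and 414 counts against 65 and 578, and 29.2% of its exon length is overlapped by the antisense gene Cdk4, so its counts are uncertain. Tspan11 was counted in dura mater replicate 2 alone (75 counts).

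Leukocyte, retinal and urothelial tetraspanins were near or at 0. Cd53, which marks leukocytes in general, had 1 and 3 counts in the brain libraries, against 0 and 1 in those of dura mater, Cd37, a B cell tetraspanin, had 0 and 2 against 1 and 1, and Tspan32 had none. Of the photoreceptor pair, Prph2 had no count, while Rom1 had 0 and 551 counts in the brain libraries, against 0 and 393 in those of dura mater. Rom1 thus stood at 0 in both libraries numbered 1 and above 390 counts in both numbered 2. Counts of 7 or fewer in both libraries numbered 1 and 64 or more in both numbered 2 were found for 369 symbols. The urothelial members Upk1a and Upk1b had no count.

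**Figure D4:**
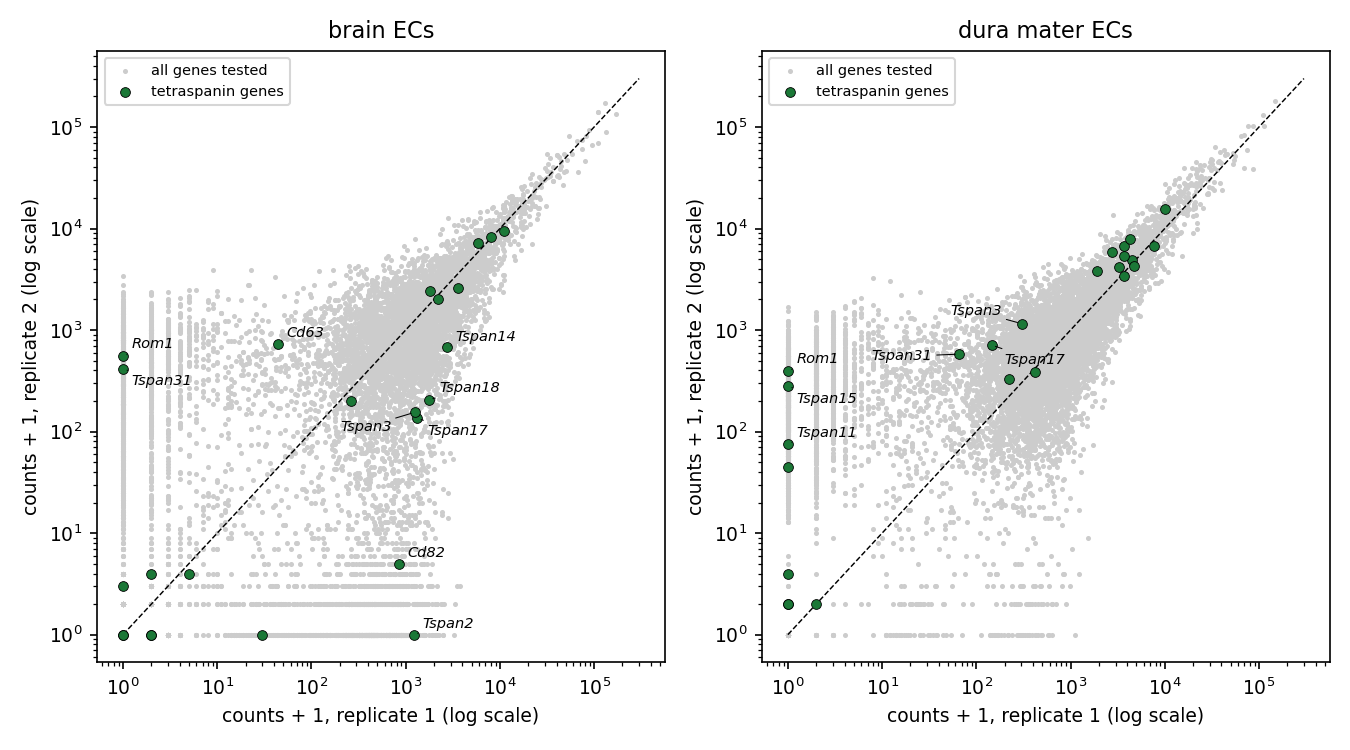
Counts + 1 in replicate 1 (x axis, log scale) and replicate 2 (y axis, log scale) of brain ECs (left) and dura mater ECs (right) for all genes tested (grey) and the 24 tetraspanin genes with a count (green), with names where the 2 values differ by over 3-fold and the higher is at 64 counts or more. Names are on the left panel for Rom1, Tspan31, Cd63, Tspan14, Tspan18, Tspan3, Tspan17, Cd82 and Tspan2, and dura mater replicates lie nearer the dashed line of equal counts.

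The spread between replicates was wide for part of the family, as it was for part of all symbols. Of the 16 members that reached 64 counts in a brain library, 8 differed by over 4-fold between the brain libraries (50.0%, with 46.5% over all symbols at that level). Of 19 such members in dura mater ECs, 4 did (21.1%, with 41.5% over all symbols). In brain ECs the higher library was replicate 1 for Cd82, Tspan2, Tspan3, Tspan17 and Tspan18 and replicate 2 for Cd63, Rom1 and Tspan31. In dura mater ECs it was replicate 2 for all 4 (Rom1, Tspan11, Tspan15 and Tspan31). Dura mater replicate 2 also had the most symbols with a count, 11803, against 9350 to 10246 in the other libraries.

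Use of strand in the counting is not stated, and exons on the other strand cover 13.4% of Tspan4 (Chid1), 10.7% of Cd9 (Gm26728), 7.04% of Cd151 (Gm10575) and 3.61% of Cd81 (R74862) by exon length, so the counts of these genes may hold reads of their partners.

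Of the 22 partners of tetraspanins, 20 were tested and 1 passed in edgeR, as higher in dura mater ECs, with 0 passing as lower and 5 in all at an unadjusted p under 0.05 (DESeq2 called 4, all higher). Over all genes tested the shares were 0.610% in edgeR, 10% at an unadjusted p under 0.05 and 8.63% in DESeq2. The partner that passed was Icam1, the leukocyte receptor that gathers in tetraspanin patches at the EC surface. It rose from 707 and 877 counts in brain ECs to 25322 and 15998 in dura mater ECs, a log2 fold change of 4.64 (± 0.50 SE, adjusted p 0.0248 in edgeR), and the antisense gene Gm47079 overlaps 11.7% of its exon length. Vcam1, its companion in leukocyte docking, had 9335 and 6320 counts against 23540 and 17294 (log2 fold change 1.33, edgeR adjusted p 0.340), and DESeq2 called it. The median log2 fold change of the tested partners was 0.48, beside -0.01 over all genes tested.

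Adam10, the protease bound by TspanC8 members, had 1979 and 2022 counts in the brain libraries, against 5613 and 2233 in those of dura mater. Dura mater replicate 1 stood above the other 3 libraries, which were alike, so the tissues overlapped (log2 fold change 0.94, SE 0.65, edgeR adjusted p 0.786). Its substrates Cdh5, Cx3cl1 and Notch1 had higher values in both dura mater libraries, as did 25.9% of all genes, with log2 fold changes of 0.54, 1.49 and 1.70 and edgeR adjusted p of 0.799, 0.466 and 0.738. Notch4 and F11r overlapped. The vesicle genes Sdcbp, Pdcd6ip and Tsg101, which work with Cd63 in the release of exosomes, overlapped between tissues too. Of the integrin subunits, Itgb4, which pairs with Itga6 to bind laminin, had the widest gap, with 0 and 1 counts against 1256 and 2261 (log2 fold change 9.36, adjusted p 0.108 in edgeR), and DESeq2 called it. Itga4, a subunit of the receptor for Vcam1, had 1201 and 222 counts against 2 and 130 (log2 fold change -3.57, adjusted p 0.837 in edgeR). Itga3 and Itgb1 differed by log2 fold changes of 0.34 and 0.42, and Itga6 by -1.03 (edgeR adjusted p 0.524). The protease Mmp14, which is held at the surface with Cd151, had 3 and 7 counts against 1446 and 2099 (log2 fold change 7.87, adjusted p 0.126 in edgeR) and was also called in DESeq2. Adam17, the close relative of Adam10, had 3324 and 1630 counts against 689 and 1141 (log2 fold change -1.54, adjusted p 0.496 in edgeR).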

How the data were processed

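Libraries of sorted ECs were made with a Lexogen Quant-Seq kit. The authors deposited raw counts, 1 table per library, as whole numbers for 23282 symbols. The study names TopHat as its aligner; the submitters' processing notes name Bowtie2, edgeR and mm10. The counting step, annotation and use of strand are not given in the sources used here. Groups were taken from the titles.

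The quasi-likelihood test of edgeR 4.0.16 (R 4.3.3) was fitted to the whole table, with TMM scaling, filterByExpr (9347 genes kept), a single term for tissue and Benjamini-Hochberg adjustment. It stands in for cufflinks, which needs alignments. Log2 fold changes used a prior count of 2, the SE is the log2 fold change divided by the root of F, and CPM used the library totals (13518973 to 16096203 counts) multiplied by TMM factors of 0.962 to 1.03. Members, role groups, partners and markers were chosen with earlier results of these data known. Members given in full were those passing, those without overlap and at least 4-fold apart with 64 counts in both libraries of the higher tissue, and Tspan7, Cd9, Cd63, Cd81 and Cd151; the values of others were chosen after they were seen. Alternatives were DESeq2 1.42.0, limma-voom (limma 3.58.1), other scalings, dispersions and filters, thinning, a prior count of 0.5, the replicate number as a block and each library left out. The prior count of 0.5 alters log2 fold changes only, and its p-values are those of the main fit. The edgeR and DESeq2 tests were also run on simulated counts, with a single spread for all genes in each run. That run is not used as support here. Positions are from GENCODE M21 (GRCm38) and promoters from RefSeq (28 of 30 members matched).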

Additional observations from a re-analysis of the deposited data

How the results depend on the processing

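Requiring 64 counts in both libraries of either tissue was chosen after seeing the data. Against 1 tetraspanin gene, 57 genes over the whole table and 1 partner passing in edgeR, the numbers were 2, 807 and 4 in DESeq2, 4, 306 and 4 with the newer dispersion estimate, and 4, 326 and 3 without a filter on low counts. With 10 counts in every library, 141 genes passed over the table, and the tetraspanin gene that passed was Cd9, since Tspan7 was removed. In limma-voom 0 tetraspanin genes passed (8 had an unadjusted p under 0.05), with 80 over the table. The split of the whole table into higher and lower in dura mater ECs was 40 and 17. Lower genes outnumbered higher ones without dura mater replicate 2, at 43 and 54. The split was 617 and 190 in DESeq2, 43 and 37 without dura mater replicate 1, 40 and 40 in limma-voom, 181 and 125 with the newer dispersion estimate, 195 and 131 without the filter, 75 and 66 with 10 counts in every library, and 133 and 91 with the block. With the replicate number as a block the numbers were 2 (Tspan7 and Cd9), 224 and 2. The labels do not say that libraries with the same number belong together, and the deviations of such libraries did not run together (correlation across genes -0.0171), so the block served as an alternative only. Leaving out 1 library gave 1 to 4 tetraspanin genes, 80 to 740 genes over the table and 1 to 6 partners; the 3-library fits assume that the lone library varies like the other tissue. The highest numbers came without a brain library: 4 tetraspanin genes without brain replicate 1 (Tspan14, Tspan18, Cd9 and Tspan7) and 4 without brain replicate 2 (Cd63, Tspan2, Cd9 and Tspan7). RLE scaling, library size alone, thinning and the filter of 64 counts left the tetraspanin number at 1, with Tspan7 the gene in each.

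The sign of the log2 fold change held in every setting run for 10 of the 17 tested members (Tspan7, Cd9, Cd63, Cd81, Tspan5, Tspan6, Tspan9, Tspan13, Tspan14 and Tspan18) and turned in at least 1 for the other 7. In limma-voom Cd82 was at 2.01 and Tspan3 at 0.34, and with the replicate block they were at 1.80 and 0.32. With each library left out in turn, log2 fold changes ran from -1.69 to 7.18 for Tspan31, from -2.24 to 1.34 for Tspan17, from -7.18 to 6.43 for Rom1, from -1.74 to 5.33 for Cd82, from -1.14 to 1.92 for Tspan3, from -0.14 to 0.51 for Tspan4 and from -0.0816 to 0.29 for Cd151. The difference in summed tetraspanin share, 0.144 percentage points, ranged from 0.108 to 0.179 with a library left out and was 0.149 without the most counted genes. With 2 libraries per tissue and this spread, a difference that did not pass may still be present.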
